A study of Mus musculus with 32 samples.

Results

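The trimethylation of histone H3 at lysine 9 (H3K9me3) was followed in gonocytes of Morc1 knockout mice (KO, Morc1 -/-) from the embryonic stage E16.5 to the day of birth (P0). The members were the autosomal peaks of the KO lists of these stages, 70487 at E16.5 and 89020 at P0, together 159507 of 581860 peaks in all 8 lists of the series. An E16.5 peak with at least 1 bp in common with a P0 peak was called kept, one without was called gone, and a P0 peak without an E16.5 counterpart was called new.

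The series holds male germ cells taken from testes of Mvh-Venus transgenic mice, whose reporter carries the name of the germ cell gene Mvh, or Ddx4. Chromatin was precipitated with an H3K9me3 antibody at E13.5, E16.5, P0 and postnatal day 3 (P3). The KO group was compared with animals heterozygous for the Morc1 mutation (het, Morc1 +/-), which carried the same transgene, so that no group was wild type. Each genotype and stage had 2 samples and was represented by 1 list of peak positions, so no value below has a replicate error and none was tested. The 95% Wilson intervals cover counting error only and treat peaks as independent, although neighbouring peaks are not. Read depth is unknown, peak heights were not given, and the lists carry no expression by which the knockout or the identity of the cells could be checked.

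H3K9me3 is bound by heterochromatin protein HP1 and marks silenced chromatin, in particular transposable elements, satellite repeats and clusters of repeated gene families. Gonocytes are the arrested male germ cells between primordial germ cells and spermatogonia, and in them the genome is methylated anew after the erasure of DNA methylation in primordial germ cells. Morc1 encodes a nuclear ATPase of the GHKL type that is needed for transposon silencing in the male germ line. The gene body of Morc1 held no peak in either KO list, and 1.62 kb of peaks in the E16.5 het list and 3.47 kb in the P0 het list.

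The sequences below show the kinds of short element whose peak call differed between the KO lists. They come from RefSeq for mouse assembly GRCm38.p6, which corresponds to the mm10 build named in the submitters' processing notes. The first set are promoter windows, the 250 bases before a gene start, and capitals mark each CG dinucleotide. Topaz1, a gene needed for male meiosis, lies on the plus strand and its window (chr9:122746949-122747198) lost its peak. The window of the olfactory receptor gene Olfr131 on the minus strand (chr17:38082977-38083226) also lost its peak, and that of Gm11555 on the minus strand (chr11:99650182-99650431) gained one.
Topaz1 promoter: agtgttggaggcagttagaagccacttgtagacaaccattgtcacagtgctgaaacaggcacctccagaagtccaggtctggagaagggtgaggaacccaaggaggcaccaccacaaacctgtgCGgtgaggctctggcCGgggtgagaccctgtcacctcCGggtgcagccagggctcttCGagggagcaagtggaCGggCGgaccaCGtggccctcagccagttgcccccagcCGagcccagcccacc
Olfr131 promoter: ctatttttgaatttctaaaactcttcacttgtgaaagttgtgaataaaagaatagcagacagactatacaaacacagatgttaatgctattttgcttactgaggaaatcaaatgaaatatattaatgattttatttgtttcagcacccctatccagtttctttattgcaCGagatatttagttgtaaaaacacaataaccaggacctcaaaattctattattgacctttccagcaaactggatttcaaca
Gm11555 promoter: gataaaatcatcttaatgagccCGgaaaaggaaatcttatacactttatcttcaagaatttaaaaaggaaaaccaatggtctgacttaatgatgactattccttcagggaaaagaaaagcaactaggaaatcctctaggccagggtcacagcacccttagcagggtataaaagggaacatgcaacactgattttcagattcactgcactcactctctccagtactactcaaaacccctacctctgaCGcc

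The second set are mature miRNAs of 2 groups of hairpins that lay in E16.5 KO peaks, Mir25 only in part, and in no P0 KO peak. Capitals mark the seed, bases 2 to 8. Mir106b, Mir93 and Mir25 are a cluster within Mcm7, a gene of the replicative helicase, and miR-106b-5p and miR-93-5p share their seed. The 3 hairpins of the Mir344 family lie in the gene-poor stretch before Ndn, and their 5p products share a seed.
miR-106b-5p: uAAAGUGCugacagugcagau
miR-93-5p: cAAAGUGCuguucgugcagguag
miR-25-3p: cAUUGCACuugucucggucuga
miR-344-5p: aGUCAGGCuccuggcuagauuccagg
miR-344b-5p: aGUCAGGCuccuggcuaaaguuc
miR-344g-5p: aGUCAGGCuccuggcaggagu

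The P0 KO peaks covered more of the genome than the E16.5 KO peaks. Their length rose from 268.7 Mb to 324.0 Mb, a ratio of 1.21, while the het lists went from 292.6 Mb to 309.0 Mb, a ratio of 1.06. The E16.5 KO list was the smaller of the 2 E16.5 lists and the P0 KO list the larger of the 2 P0 lists. Of the E16.5 KO length, 82.1% (220.6 Mb) was also called at P0. Peaks that were kept lost 30.9 Mb and gone peaks took away 17.2 Mb. Kept peaks gained 52.5 Mb and new peaks added 50.9 Mb, so the added length was shared almost evenly between both routes. The net change was 55.3 Mb in KO and 16.3 Mb in het. The direction was the same on all 19 autosomes in KO, from a ratio of 1.11 on chromosome 16 to 1.39 on chromosome 11. In het the ratio ran from 0.979 on chromosome 15 to 1.17 on chromosome 13.

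**Figure D1:**
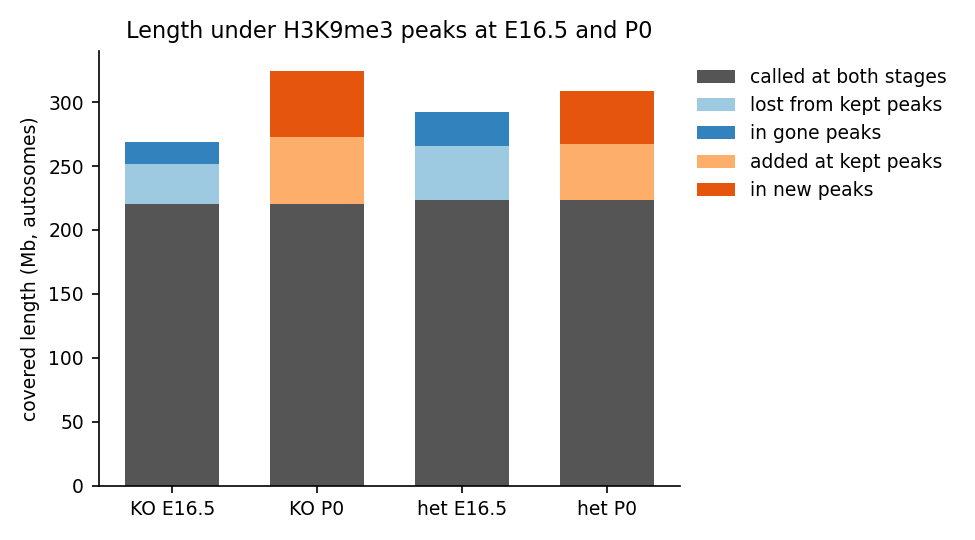
Autosomal length under H3K9me3 peaks in Mb (vertical axis) in the KO and het lists of E16.5 and P0, divided into length called at both stages, length lost or added at kept peaks, and length in gone or new peaks. The KO bars rise from 268.7 to 324.0 Mb and the het bars from 292.6 to 309.0 Mb.

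New peaks numbered 30519, or 34.3% of the P0 KO list (interval 34.0% to 34.6%), and gone peaks 11020, or 15.6% of the E16.5 KO list (15.4% to 15.9%). In het, 28.5% of P0 peaks were new and 21.8% of E16.5 peaks were gone. These counts are tied to the sizes of the lists. Cut to the 70487 longest P0 peaks, which brings the counts together by construction, the comparison had 17361 new and 16011 gone peaks. Both kinds were short. The median new peak measured 1368 bp and the median gone peak 1256 bp, against 3341 bp for kept P0 peaks and 2732 bp for kept E16.5 peaks. New peaks had a median distance of 12.4 kb to the nearest E16.5 KO peak, and 21.9% lay under 5 kb from it. Whether this differs from the distance of other positions in the genome was not tested. Gone peaks had a median distance of 6.86 kb to the nearest P0 KO peak. The P0 KO list holds more peaks than the E16.5 KO list, which shortens this distance by itself. In het the median distances were 10.5 kb for new and 8.52 kb for gone peaks.

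The shares of gone and broken peaks differed with peak length, an order that the overlap rule favours by itself. A longer peak is more likely to share 1 bp with some P0 peak, and with several. A 1001-bp peak could not meet 2 peaks, as the smallest gap was 1499 bp. Every list has a most common peak length of 1001 bp, and of the E16.5 KO peaks of that length 43.7% were gone at P0. The share fell through 22.4% below 2 kb, 6.48% from 2 to under 5 kb and 1.60% from 5 to under 10 kb to 0.481% from 10 to under 30 kb. None of the 403 peaks of 30 kb or more was gone, which allows a share of up to 0.944% by the interval. Long peaks were more often broken up, and how far this exceeds the effect of length was not tested. At P0, 2 or more pieces stood in place of 23.5% of E16.5 peaks from 10 to under 30 kb and of 68.7% (64.0% to 73.1%) of those of 30 kb or more. The P0 list mirrored this. There 73.2% of the 1001-bp peaks were new, but 1 of 221 peaks of 30 kb or more was. The het lists gave the same order, with 55.0% of 1001-bp peaks gone and 75.7% of peaks of 30 kb or more broken up.

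**Figure D2:**
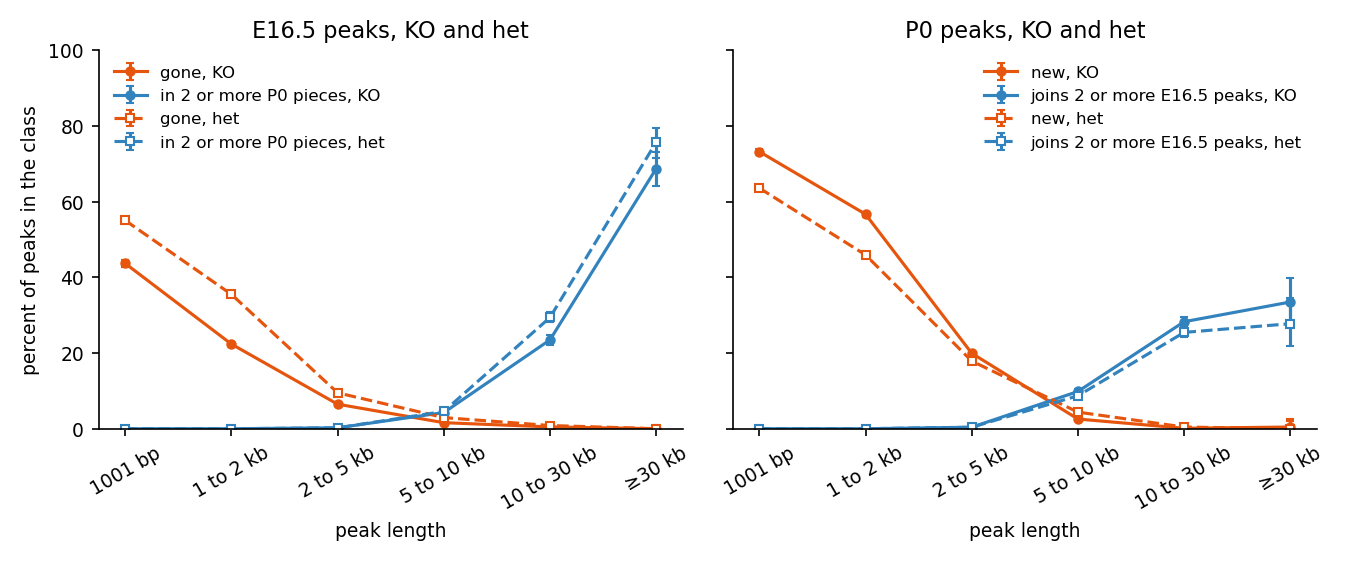
Share of peaks in each length class (vertical axis, percent) that were gone or broken up among E16.5 peaks (left) and new or joining several E16.5 peaks among P0 peaks (right), in KO (filled) and het (open), with 95% Wilson intervals. In KO the gone share goes from 43.7% at 1001 bp to 0 at 30 kb or more, while the broken share reaches 68.7%.

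Most kept peaks met a single partner. Of 52143 one-to-one pairs in KO, 63.9% were longer at P0 and the median P0 to E16.5 length ratio was 1.09 (quartiles 0.944 and 1.43). In het 53.1% were longer and the median ratio was 1.01. With a change of at least 1.5 times, 11653 KO pairs (22.3%) had widened and 4189 (8.03%) had narrowed, against 17.1% and 12.1% in het. The length ratio was highest for pairs that were short at E16.5, an order that classing by the E16.5 length favours by itself and that het shared. Pairs that started at 1001 bp, the shortest length in both KO lists, could not narrow and had a median ratio of 1.59 (het 1.55). Pairs of 2 to under 5 kb had a median ratio of 1.08, with 14.9% widened and 10.4% narrowed, and pairs of 10 to under 30 kb one of 0.992. Among the latter, 0.191% widened and 7.35% narrowed. The largest widening in base pairs was at Ccdc7b on chromosome 8 (chr8:129159373-129180159), where a peak of 7.55 kb grew to 20.8 kb. Over the same stretch the het cover went from 7.51 to 20.4 kb. Between Pabpc6 and Qk, an RNA-binding protein gene, a 1001-bp peak became one of 14.0 kb (chr17:10138036-10152045), and P0 het peaks covered 7.05 kb there. Between the cell cycle inhibitor gene Cdkn2b and Dmrta1, a peak of 4.04 kb became one of 16.545 kb (chr4:89484296-89500840).

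The largest narrowing lay in and beside Fstl5, a gene for a secreted follistatin-like protein. A peak of 21.9 kb between Fstl5 and Rapgef2 (chr3:77310559-77332501) was left with a partner of 2.07 kb at P0, and 2 peaks inside Fstl5 went from 19.6 to 3.90 kb and from 26.9 to 12.6 kb. Het peaks over the first of these stretches went from 20.1 to 6.21 kb. Between the cadherin genes Cdh6 and Cdh9 a peak of 15.3 kb (chr15:13970357-13985703) shrank to 1.25 kb in KO, and the cover of that stretch in het went from 13.9 to 1.28 kb.

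Peaks that broke up were long, and most had their midpoint outside genes. The 1690 broken E16.5 KO peaks (2.40% of the list) had a median length of 14.9 kb, against 2366 bp in the whole list. Of them 9.70% had their midpoint in a protein-coding gene body, against 25.3% of all E16.5 KO peaks. The share among unbroken peaks of similar length was not measured, so an effect of length was not separated. Most broken peaks fell into 2 pieces (1402), 220 into 3, 42 into 4, 17 into 5, 7 into 6 and 2 into 7. Of the base pairs of broken peaks 74.8% stayed under P0 KO peaks. For E16.5 KO peaks of at least 10 kb in one-to-one pairs it was 92.8%. The classes favour this order by themselves, as a broken peak spans a gap between P0 peaks and a one-to-one peak spans none. In the E16.5 het list 82.0% of the same domains met a single peak, and het peaks covered 96.6% of their base pairs. In the P0 het list 65.3% of them met 2 or more peaks, and in the P3 KO list 67.1%. For comparison, 13.2% of the E16.5 KO peaks of at least 10 kb with a single P0 partner met 2 or more peaks in P0 het. The E13.5 KO list had 2 or more pieces in 37.6% of the broken domains. Whether the gaps fell at the same positions was not measured beyond the domains drawn in the map of peak calls.

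The domain with 7 pieces and the greatest length was a 95.3 kb peak between D3Ertd751e and the protocadherin gene Pcdh10 (chr3:43012844-43108178). Its cover went from 95.3 to 79.1 kb in KO, and P0 het had 6 pieces with 82.0 kb and P3 KO 8 pieces with 73.7 kb. A 64.5 kb peak between Tmprss15 and the cell adhesion gene Ncam2 (chr16:80546742-80611241) was left with 39.7 kb in 7 pieces, and P0 het had 35.0 kb in 7 pieces. A 102.1 kb peak before Ndn, an imprinted gene of the Prader-Willi region (chr7:61859907-61962017), broke into 6 pieces that held 90.9 kb. This peak was a single peak in both E13.5 lists and both E16.5 lists, and in 5 pieces in P0 het and P3 KO. It contains Mir344-2, which lies in a gap between the P0 pieces.

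Fusion also occurred. In KO 2834 P0 peaks (3.18%) joined 2 or more E16.5 peaks, of which 2632 joined 2, and 65.5% of them met a single peak in P0 het and 58.8% in P3 KO. The P0 peak that joined the most, 5 E16.5 peaks, measured 36.9 kb and lay between Efcab1 and the ubiquitin-conjugating enzyme gene Ube2v2 (chr16:15462049-15498963). P0 het had 3 peaks there and P3 KO again 5, so this fusion was not seen in other lists. At one end of Sntg1, a syntrophin gene, 4 peaks with 31.3 kb became 1 of 45.1 kb (chr1:8314786-8359848). The P0 het list kept 4 peaks there with 28.9 kb. In spite of the fusions, the longest KO peak went from 123.2 to 90.2 kb and peaks of 30 kb or more from 403 to 221, while peaks of 10 kb or more went from 4351 to 5053. In het the peaks of 30 kb or more went from 449 to 191.

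**Figure D3:**
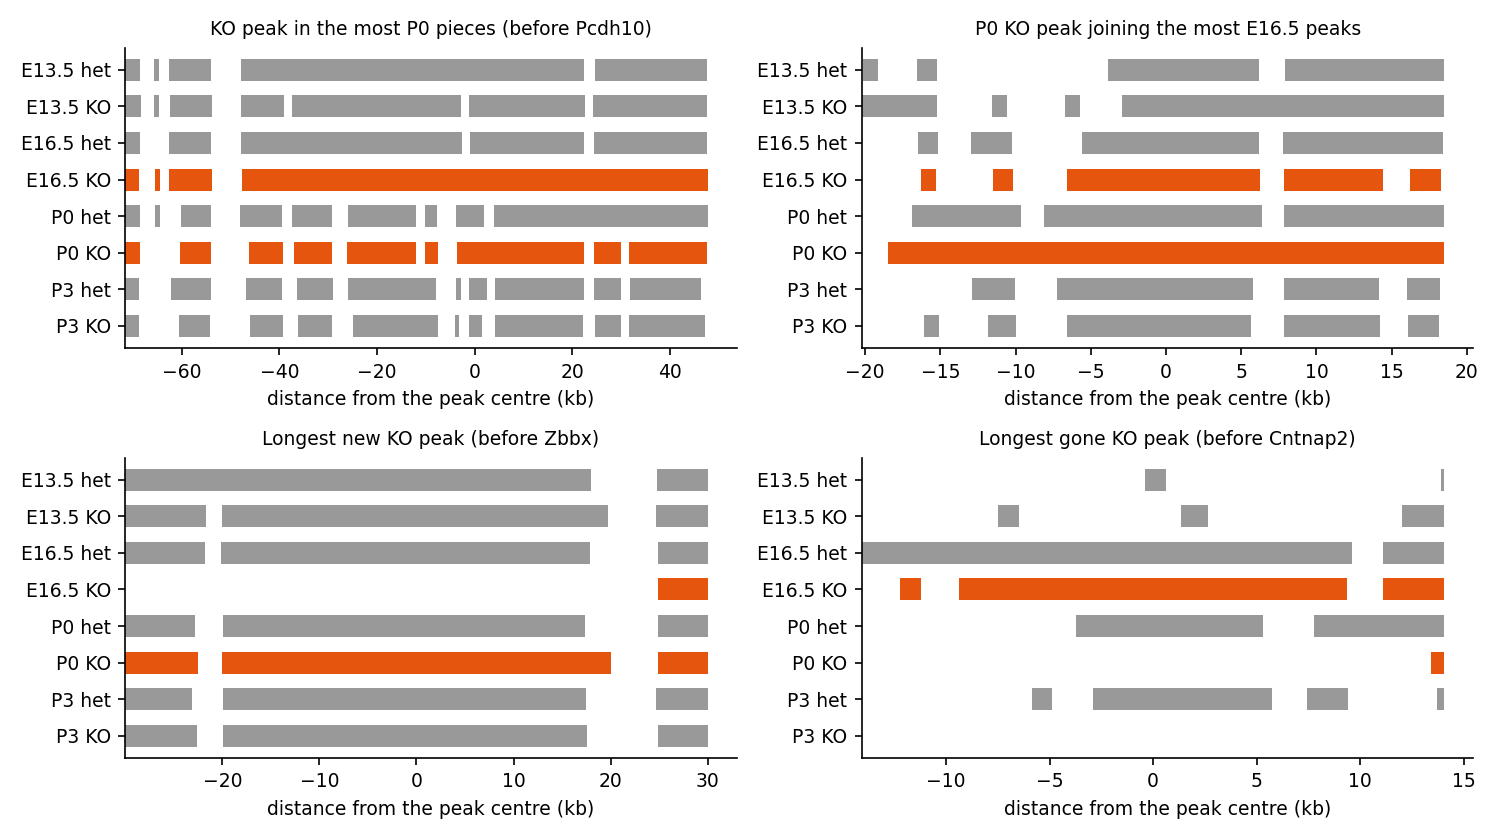
Peak calls in all 8 lists around 4 regions, drawn as bars against the distance from the centre of the named peak in kb, with the E16.5 and P0 KO lists in colour. The peak before Pcdh10 is whole at E16.5 KO and in 7 pieces at P0 KO, and the longest new peak, before Zbbx, is absent from the E16.5 KO list alone.

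New KO peaks tended to be called again in the lists that came next. In P3 KO 60.5% of them had a peak and in P0 het 57.7%, while 12.8% had one in E16.5 het and 6.36% in E13.5 KO. Of kept P0 peaks, 88.4% had a peak in P3 KO and 92.3% in P0 het. Among the 2227 new peaks of at least 3 kb the shares were 90.9% in P3 KO and 90.1% in P0 het. No other list held 19.9% of the new peaks (6060), and of the longer ones 1.35%. Gone peaks were found in E16.5 het in 77.8% of cases and in P3 KO in 16.3%. Of the 798 gone peaks of at least 3 kb, 98.2% were called in E16.5 het and 50.5% in P0 het. Of all gone peaks, 22.7% were called in P0 het. A longer peak is more likely to share 1 bp with a peak of any list. Length by itself therefore favours higher shares among the longer new and gone peaks.

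**Figure D4:**
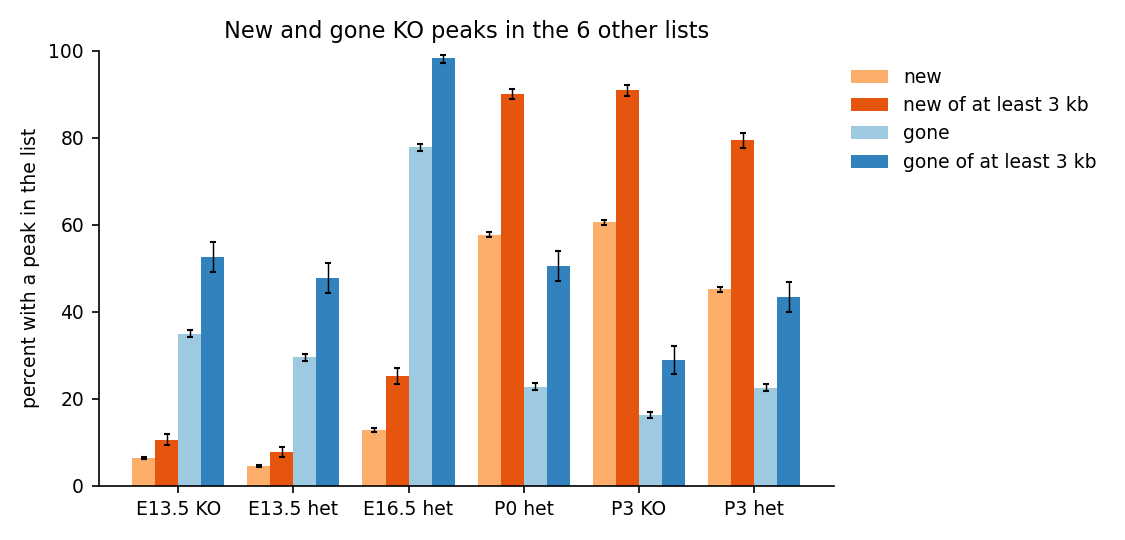
Share of new and gone KO peaks (vertical axis, percent, with 95% Wilson intervals) that have a peak in each of the 6 lists not used to define them. New peaks of at least 3 kb reach 90.1% in P0 het and 90.9% in P3 KO, and gone peaks of at least 3 kb reach 98.2% in E16.5 het.

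The longest new and gone peaks include calls that were missing from 1 list only. The longest new peaks, of 40.0 kb and 21.5 kb (chr3:74682776-74722758 and chr3:74643407-74664888), lie side by side between Gm6098 and Zbbx, and each was absent from E16.5 KO and called in all 6 lists outside the comparison. E16.5 het peaks covered 37.9 kb of the first and the whole of the second. In all, 132 new peaks (0.433%) and 206 gone peaks (1.87%) were called in all 6 lists outside the comparison, so their absence was seen in a single list. Other long new peaks followed the stage. A new peak of 12.033 kb between Nphp4, a gene for a ciliary protein, and Ajap1 (chr4:152605211-152617243) was matched by 4.13 kb in P0 het and 11.8 kb in P3 KO, with 1.00 kb in E16.5 het and none in either E13.5 list. A new peak of 10.7 kb between the pluripotency gene Sox2 and Atp11b (chr3:35266259-35276946) had no call in either E13.5 list or in E16.5 het, and 8.46 kb in P0 het. The longest gone peak, of 18.7 kb before Cntnap2, a neurexin family gene (chr6:44230645-44249377), was also without a call in P3 KO, whereas P0 het held 10.6 kb and P3 het 11.6 kb. A gone peak of 13.2 kb before Ndn (chr7:61238516-61251723) had no call in P0 het or P3 KO and 10.8 kb in P3 het.

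Relative to its E16.5 level, peak length grew more inside genes than outside, although the larger part of the added length lay outside. Of new KO peaks, 37.3% (36.7% to 37.8%) had their midpoint in the body of a protein-coding gene, against 24.6% of kept P0 peaks and 28.9% of gone peaks. In het the new and gone shares were 32.3% and 32.8%. Peak length inside gene bodies grew from 50.5 to 71.6 Mb in KO, a ratio of 1.42, and outside them from 218.3 to 252.4 Mb, a ratio of 1.16. The het ratios were 1.09 and 1.05. In 1 Mb windows with under 10% of their length in gene bodies the KO ratio was 0.995, and it went up through 1.21 and 1.35 to 1.42 in windows with 60% or more. Of the 414 gene-poor windows 62.8% had more cover at P0 all the same, and their median cover went from 188.2 to 195.6 kb. The contrast was kept with equal numbers of the longest peaks, with 0.960 in the gene-poor and 1.30 in the gene-rich windows. Over all 2398 windows, 89.5% had more cover at P0 in KO and 75.7% in het.

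Windows chosen after their values were seen show both ends of this range. The 1 Mb window with the greatest loss in KO, at 71 to 72 Mb of chromosome 3, contains no protein-coding gene, and its cover went from 619.4 to 363.7 kb in KO and from 620.9 to 326.4 kb in het. Of the 5 windows with the greatest loss, 4 held no gene body, and all 5 had a loss of the same order in het. The window with the greatest gain, at 5 to 6 Mb of chromosome 1, holds the opioid receptor gene Oprk1, the proton pump gene Atp6v1h, Rgs20 and Npbwr1. Its cover went from 271.0 to 374.7 kb in KO and from 270.6 to 362.3 kb in het.

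Of 20665 autosomal protein-coding genes, 5169 had at least 1 kb more peak cover in their body at P0 than at E16.5 in KO, which is 25% of all genes, and 1040 had at least 1 kb less (5.03%). These counts are called gains and losses below. In het 3208 genes (15.5%) gained and 2179 (10.5%) lost. Of the KO gains 53.9% were also gains in het, and of the KO losses 77.2% were also losses in het. Long genes offer more room for a change: of the 216 genes of 500 kb or more, 199 gained and 13 lost in KO, with 155 and 54 in het.

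The 10 genes with the largest gains in KO were all very long, and 9 of them gained in het as well. Sntg1 (chr1:8359739-9301657) went from 204.2 to 289.5 kb of cover in KO and from 211.8 to 300.3 kb in het, with 12 of its 62 P0 peaks new. Fhit, a hydrolase gene at a fragile site, went from 171.0 to 255.2 kb, and Macrod2, a gene of ADP-ribose metabolism, from 125.8 to 209.1 kb. Both gained less in het, by 43.3 and 41.2 kb. Gabrg3, which encodes a subunit of the GABA-A receptor, gained 52.8 kb in KO and 33.3 kb in het. The receptor kinase gene Alk was the exception, with a gain of 57.4 kb in KO (78.0 to 135.5 kb) and a loss in het (101.8 to 87.8 kb). Its E13.5 values were 154.6 kb in KO and 66.9 kb in het, so the E16.5 KO value was the lowest of the 4 KO stages.

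The largest losses were also in long genes, and each of the 10 lost in het too. Fstl5 (chr3:76074275-76710010) had 53.3% of its body under peaks at E16.5 KO and 32.3% at P0. Its cover went from 339.1 to 205.1 kb in KO and from 375.2 to 188.6 kb in het. Khdrbs2, an RNA-binding protein gene, went from 234.7 to 136.2 kb, and Dpp10, a potassium channel subunit gene, from 353.5 to 285.3 kb. Dpp10 went from 425.3 to 213.6 kb in het, a larger loss than in KO. Spock3, a proteoglycan gene, and Cntn6, a neural cell adhesion gene, went from 154.9 to 107.9 kb and from 97.9 to 59.9 kb in KO. Of the 10 losses, 3 were long gene models that overlap one another in the clustered protocadherin region and count much the same peaks.

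**Figure D5:**
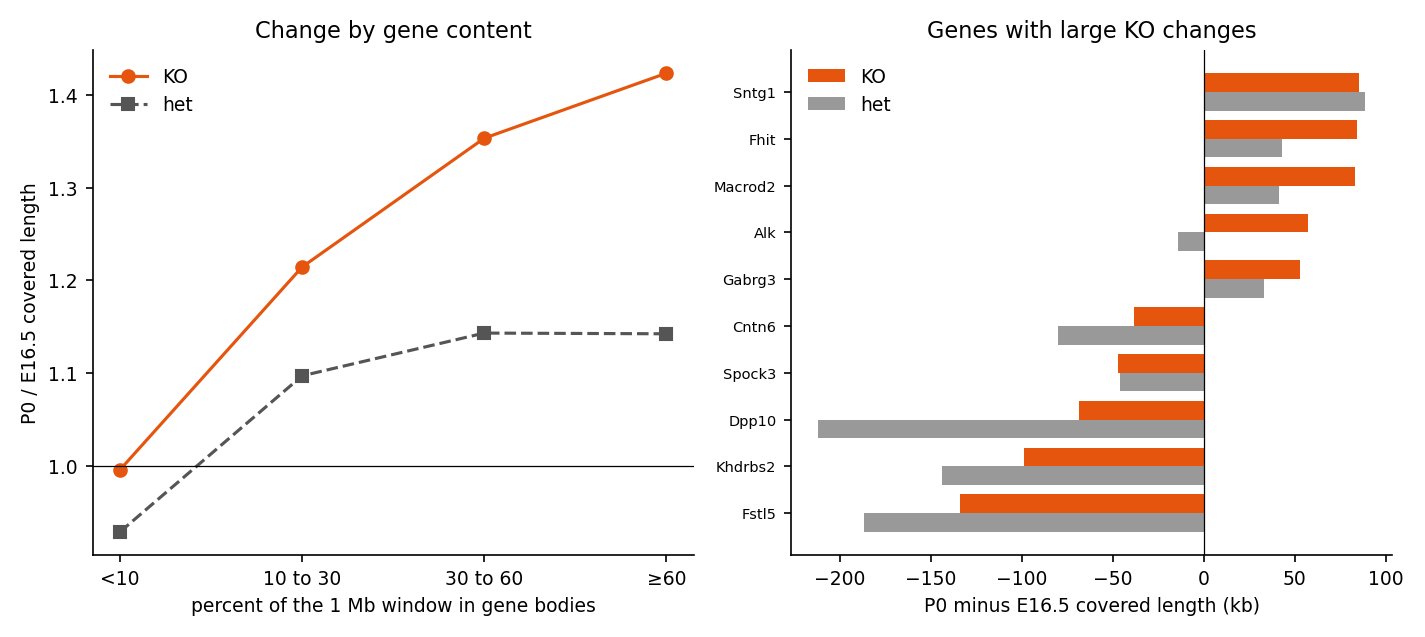
Left, ratio of P0 to E16.5 peak cover (vertical axis) in 1 Mb windows grouped by the percent of the window in gene bodies, in KO and het. Right, P0 minus E16.5 cover in kb for 10 genes described in the text from among those with the largest KO gains and losses, where Alk is the gene whose het bar points the other way.

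Relative to gene length, the changes were largest in small genes. Among genes of at least 10 kb, E330021D16Rik on chromosome 6 went from 28.0% to 80.7% of its body under peaks. Mylk2, the myosin light chain kinase of skeletal muscle, went from none to 41.7% (4.92 kb), in a peak that was new, and had 4.64 kb in P0 het and no cover in either E16.5 list. Vmn2r11, a pheromone receptor gene (chr5:109046873-109059452), went from 89.6% to none in KO, where P0 het kept 10.6 kb and P3 KO held 6.59 kb. Bcam, a cell adhesion gene, went from 9.66 to 2.69 kb in KO and from 9.995 to 8.60 kb in het. Klrk1, a receptor of natural killer cells, went from 10.1 to 4.04 kb in KO and from 11.2 kb to none in het.

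Genes of the germ line and meiosis had a share of gains near that of all genes. Of 44 members, 10 gained and 3 lost in KO, where 25% and 5.03% of all genes did. In KO only 17 members had a peak at either stage, which sets the median difference over all 44 at 0 kb. Over members with a peak the median difference was 1.57 kb, against 1.19 kb over all genes with a peak. Zbtb16, a transcription factor of spermatogonial stem cells, had the largest gain, from 9.42 to 18.9 kb, with 7.74 and 7.95 kb in het. Dmc1, the meiotic recombinase, went from none to 6.28 kb in KO, and the other lists held 1.55 to 5.76 kb. Mael, a gene of the piRNA pathway, went from 3.74 kb to none in KO and from 4.17 kb to none in het. Mei4, a gene for meiotic break formation, went from 67.2 to 63.2 kb in KO and from 72.1 to 76.9 kb in het.

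Ddx4, whose alias Mvh names the transgene, was the third gain of this list and had the most uneven values. Its body (chr13:112598333-112652633) had 6.79 kb under peaks in E16.5 KO and 12.2 kb in P0 KO, and the KO lists before and after had 47.5 kb (E13.5) and 27.5 kb (P3). In het the cover was 50.033 kb at first, 49.97 kb at E16.5, 11.7 kb at birth and 50.198 kb in the P3 list. The E16.5 KO list was thus low among the 4 KO lists, and the P0 list among the 4 het lists. The promoter window of Ddx4 was without a peak in E16.5 KO and covered in the 7 other lists. The part of the transgene in these values was not tested.

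Imprinted genes had gains in KO, while their summed cover fell, a fall that rests on Snrpn alone. Of 29 autosomal members, 12 gained (41.4%, against 25% of all genes) and 3 lost (10.3%, against 5.03%) in KO. The median difference in KO was 0 kb, and 3 members gained and 8 lost in het. Gene length, on which such shares depend, was not matched. Zdbf2 went from none to 3.84 kb and the growth factor receptor adaptor Grb10 from 11.9 to 15.6 kb. Snrpn, a splicing protein gene of the Prader-Willi region, went from 205.2 to 169.4 kb in KO and from 211.8 to 165.3 kb in het. Peg10, a gene derived from a retrotransposon, went from 8.75 to 4.44 kb. Summed over the list the cover went from 307.1 to 295.3 kb in KO. The change at Snrpn alone (-35.718 kb) was larger than this fall, so the cover of the list outside Snrpn grew.

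Genes that build or remove silent chromatin had gains in KO about as often as all genes. Of 28 members, 8 gained (28.6%, against 25% of all genes) and 3 lost (10.7%, against 5.03%) in KO, and the median difference was 0 kb. In het 9 gained (32.1%, against 15.5% of all genes) and 4 lost (14.3%, against 10.5%). In KO 14 of the 28 had a peak at either stage, as did 8924 of all 20665 genes, so their cover was not unusual in this respect. Smchd1, a chromatin protein of X inactivation, went from 4.197 to 10.6 kb. Hells, a remodelling ATPase needed for DNA methylation, went from none to 5.77 kb, and Kdm4a, which removes H3K9me3, from none to 4.75 kb. Pphln1 and Tasor, subunits of the HUSH silencing complex, went from 9.10 to 4.90 kb and from 1.00 kb to none in KO, and from 8.06 to 4.09 kb and from 1.00 kb to none in het. Of 19 marker genes of testis somatic and blood cells, 8 gained (42.1%) and 1 lost (5.26%) in KO, where 25% and 5.03% of all genes did. Their median difference was 0.394 kb. In het 6 gained (31.6%) and 4 lost (21.1%), where 15.5% and 10.5% of all genes did. Neither list was matched for gene length, on which such shares depend. The macrophage gene Adgre1 went from 30.1 to 45.3 kb and the smooth muscle gene Myh11 from 6.89 to 16.0 kb. Dhh, a Sertoli cell signal, went from 1.00 kb to none, and the smooth muscle actin gene Acta2 from 1.25 to 1.00 kb.

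The receptor gene families changed little in sum. Gains were found in 25% and losses in 5.03% of all genes, but these shares depend on gene length. Of genes under 20 kb, 6.80% gained and 3.02% lost in KO, and of genes from 100 to under 500 kb, 77.6% gained and 7.06% lost. The counts of the families below, like those of the gene lists above, were not matched for gene length. Olfactory receptor genes (Olfr) had 18 gains (1.63%) and 24 losses (2.17%) among 1104 members, and their covered length went from 615.8 to 608.8 kb in KO. Vomeronasal receptor genes (Vmn1r, Vmn2r) had 36 gains (10.2%) and 32 losses (9.04%) among 354, with Vmn2r120 going from 3.82 to 15.6 kb and Vmn2r94 from 20.2 to 3.804 kb. Zinc finger genes named Zfp had 67 gains (17.1%) and 45 losses (11.5%) among 391. The median difference was 0 kb in each of these 3 families, which is set by the members without a peak at either stage, the larger part of each. Over members with a peak it was 0.185 kb for Zfp genes and 0 kb for olfactory and for vomeronasal receptor genes. The loss at Zfp62, from 5.88 kb to none, was found in het (5.99 kb to none), and P3 KO held 5.45 kb again. The clustered protocadherin genes, cell adhesion genes whose bodies overlap and thus count much the same peaks, had 7 gains (12.3%) and 16 losses (28.1%) among 57 in KO and no gain and 34 losses in het. Their median difference in KO was -0.726 kb.

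Promoters were seldom under a peak. Of 20085 promoter windows matched from RefSeq, belonging to 16457 genes, 265 were covered in P0 KO and not in E16.5 KO (1.32%), 115 were covered in E16.5 KO and not in P0 KO (0.573%), and 591 were covered in both. In het the counts were 212 gained and 185 lost, and 106 of the gained and 59 of the lost windows of KO changed the same way in het. Covered windows were poor in CG dinucleotides, with a median of 2 CG per 250 bases in gained, 2 in lost and 1 in kept windows, against 11 in uncovered windows. CG was counted on 1 strand, as it reads the same on both. At least 10 CG were found in 6.04% of gained, 12.2% of lost and 51.3% of all windows. Olfactory and vomeronasal receptor genes made up 47.8% of genes with a lost window and 47.6% of those with a kept window, but 15.9% of those with a gained window and 7.66% of all. Of the gained windows, 168 lay in new peaks, and of the lost windows 22 lay in gone peaks.

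The Topaz1 window printed above holds 8 CG and lay in a gone peak of 6.48 kb. It was covered in both E13.5 lists and in E16.5 KO, and in none of E16.5 het, P0 and P3. The Olfr131 window, with 1 CG, lay in a gone peak of 10.6 kb and was covered in both E16.5 lists and in no other. The Gm11555 window, with 2 CG, lay in a new peak of 4.41 kb and was covered in P0 KO, P3 KO and E16.5 het, so the genotypes differed in stage. Among CG-rich gained windows was that of Tomm40, the channel of the outer mitochondrial membrane, with 16 CG. It lay in a new peak of 6.70 kb (window chr7:19715430-19715679) and was covered in both P0 lists and in no other.

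Of 919 miRNA hairpins, 19 had a peak in P0 KO and none in E16.5 KO (2.07%), 10 the reverse (1.09%) and 41 a peak in both. The hairpins of Mir25, Mir93 and Mir106b (chr5:138165321-138165818) met 1 gone peak of 1.28 kb (chr5:138165356-138166631), which makes their loss a single event. Mir93 and Mir106b lay wholly in this peak. Mir25 (chr5:138165321-138165404, minus strand) lay in it only in part, and its 3' end, the side of miR-25-3p, was outside. They were called in both E16.5 lists and in no other list. The 3 hairpins of the Mir344 family with the shared seed lay in peaks of 19.4, 102.1 and 44.8 kb at E16.5. All 3 were called in both E13.5 and both E16.5 lists and in none of the P0 and P3 lists, while the long peaks around them were kept in part. Gains were found in the imprinted Dlk1-Dio3 domain on chromosome 12. Mir341 and Mir1188 lay in 1 peak of 5.36 kb between Rtl1 and Dio3 that was called in both P0 and both P3 lists. Mir431, within Rtl1, lay in a peak of 7.40 kb and was called in P0 KO and both P3 lists, but not in P0 het.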

How the data were processed

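H3K9me3 ChIP-seq was made from 16 samples of the series (2 per genotype and stage) by formaldehyde fixation, sonication and a low-input library kit, per the labels. The authors deposited 1 list per group with 3 columns, chromosome, start and end coordinates of each peak in base pairs, without heights, scores or counts. The submitters' processing notes name bcl2fastq 2.20, cutadapt 1.18, Bowtie2 2.3.4.1, HOMER 4.10, deepTools 3.5.0 and build mm10. Calling settings, the treatment of replicates and of the 16 H3 samples, and depth are not given in the sources used here, and all of them can change peak number and length. A list was matched to its group by the stage and genotype in its name.

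Overlaps were computed on the 19 autosomes with Python 3.11.15, numpy 2.4.6 and pandas 2.3.3, and figures with matplotlib 3.10.9. The scripts were tested on simulated lists with planted events. A widened or narrowed pair changed by at least 1.5 times. Gene bodies, promoter windows and miRNAs came from RefSeq tables of GRCm38.p6, which give outer gene ends without exons, and cover of overlapping genes is counted in each. Coordinates are 1-based. Named genes were those with the 10 largest gains and losses of cover, the 5 largest in percent of the body (genes of at least 10 kb), those at the 5 longest or most changed peaks of each kind, the 3 members of each gene list at either end, and those with a promoter in the longest new or gone peaks. The text describes some of these, and others are not reported here. Members and lists were chosen with earlier results of these data known. Alternatives were another overlap, joined neighbouring peaks, other thresholds, X and Y included, flanks of 5 kb, and lists without the most common length, with equal numbers or with the longer 50% of peaks.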

Additional observations from a re-analysis of the deposited data

Results flagged for a closer look

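From E16.5 to P0, 563 genes gained at least 1 kb of cover in KO and lost at least 1 kb in het, and 54 did the reverse. These differences between genotypes were not tested. Among the genes chosen by the naming rule, the cover of Alk changed by 57.449 kb in KO and by -14.008 kb in het. That of Ddx4 changed by 5.373 kb in KO and by -38.289 kb in het, where the E16.5 het list held 49.97 kb and the E16.5 KO list 6.791 kb. Mei4 changed by -4.064 kb in KO and by 4.779 kb in het, and Olfr59 by 4.339 and -2.339 kb. Pcdhga1, Pcdhga2 and Pcdhga3, whose bodies overlap, each changed by 2.827 kb in KO and by -2.473 kb in het. The summed cover of the germ line and meiosis genes changed by 32.54 kb in KO and by -20.398 kb in het. The opposite sign rests on Ddx4, since the other 43 members changed by 27.167 kb in KO and by 17.891 kb in het.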

How the results depend on the processing

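Of 62 counts under an alternative, 49 stayed within 1.5 times of the reported count and 13 did not. With the longer 50% of each list there were 13643 new peaks, 4426 gone peaks, 3549 widened pairs, 1554 narrowed pairs, 1026 broken peaks, 1145 joining peaks and 2843 genes with a gain. With equal numbers of the longest peaks 17361 peaks were new. A change of 2 times left 5378 widened and 1760 narrowed pairs, a difference of 2 kb left 3106 genes with a gain and 389 with a loss, and flanks of 5 kb gave 1664 genes with a loss. Joining peaks less than 1 kb apart changed nothing, as the smallest gap was 1499 bp. Chosen after seeing the data, the demand that neither genotype had a peak at the other stage left 26605 new and 8513 gone peaks. Also chosen after seeing the data, the longer 50% of peaks gave a P0 to E16.5 ratio of 0.980 in gene-poor and 1.43 in gene-rich windows of KO, and without Ddx4 the cover of the germ line and meiosis list changed by 17.891 kb in het instead of -20.398 kb. New peaks outnumbered gone ones, widened pairs narrowed ones, and genes with a gain those with a loss under every alternative run, which for new and gone peaks at equal numbers is a near tie by construction. No paired analysis was possible because each group has 1 list without a replicate number, and for the same reason no replicate could be left out. Unknown depth and calling settings limit every count.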
